A study of Saccharomyces cerevisiae with 4 samples.

Results

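The genes described here encode the yeast machinery that ends RNA polymerase II transcripts and the nuclear machinery that trims or destroys RNA. They are 44 of the 5449 *S. cerevisiae* genes with a probe set on the arrays. They were chosen by name from the subunit lists of known complexes, with earlier results of these data known, and each was read by 1 probe set whose name does not mark it as shared with another gene. They fall into the core of the cleavage and polyadenylation factor (CPF, 9 genes), its associated APT module (5), the cleavage factors CF IA and CF IB (5), the nuclear poly(A)-binding protein gene *NAB2*, the Rat1 exonuclease group (3), the Nrd1 complex (3), the exosome core (10), the nuclear exosome factors (3) and the TRAMP polyadenylation complex (5).

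A yeast messenger RNA is cut and given a poly(A) tail by CPF together with CF IA and CF IB, and the exonuclease Rat1 then degrades the RNA that the polymerase still makes downstream. Short noncoding transcripts are ended by another route, through the RNA-binding proteins Nrd1 and Nab3 and the helicase Sen1. That route hands the transcript to TRAMP, which adds a short tail, and to the exosome with its nuclear exonuclease Rrp6, which trims precursors of stable RNAs and removes unwanted transcripts.

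Total RNA of exponential W303-1A cultures was measured on 4 Affymetrix Yeast Genome 2.0 arrays, each with 1 RNA sample. The strain is of mating type a and carries *ura3-1*, *trp1-1*, *ade2-1* and *can1-100* with the double alleles of *leu2* (mutations 3 and 112) and *his3* (mutations 11 and 15), and all cultures grew without uracil in minimal medium with 2% glucose. Cells with empty pCM189 gave the lone WT array. Cells with pCM189::RECQL5-FLAG gave the other 3 (RECQL5), and in them human RECQL5, a RecQ helicase that binds RNA polymerase II, was made from a tet promoter that is on without doxycycline, on a centromeric plasmid. The comparison asks how transcript levels differ when this human protein is present, and RECQL5 itself was not analysed here.

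The values are RMA log2 levels, so a difference of 1 is a factor of 2, and they are relative within the array set. The methods mention that published arrays served to standardize the WT array, without saying how, and the sources used here do not tell if that touched the deposited column. Since WT has no replicate, each test measures how far a lone array lies from the others relative to the scatter of the RECQL5 arrays. An effect of RECQL5 and a trait of that WT culture cannot be told apart. With 1 array against 3, an exact permutation test of a single gene cannot give a p below 0.25. RNA came from whole cultures, so the share of cells that hold a transcript and its level per cell cannot be told apart.

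The mating type label was borne out by its markers. *STE2*, *MFA1*, *MFA2*, *BAR1*, *STE6* and *AGA2*, 6 of 6 markers of a cells, passed the level filter, and *STE3*, a marker of alpha cells, read 6.60 to 7.11 over the 4 arrays. The sporulation genes *IME1*, *IME2* and *NDT80* were below the filter too. *MFA1* differed by -0.63 ± 0.16 (SE; adjusted p = 0.0221, limma).

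A gene was called when limma gave an adjusted p of at most 0.1 and the change was at least 1.5-fold (0.585 on the log2 scale). Of 40 members that passed a level filter (a mean of at least 9.23), 7 rose and 1 fell in RECQL5 cells, or 20% beside 17.4% of all tested genes in either direction. *RNA14* and *HRP1* of the cleavage factors rose the most, followed by *NRD1* and *SEN1* of the Nrd1 complex, *MTR4* and *PAP2* of TRAMP, and *RRP6*. *CLP1*, which like *RNA14* encodes a CF IA subunit, fell. No gene of the core CPF, the APT module, the Rat1 group or the 10-subunit exosome core was called.

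**Figure D1:**
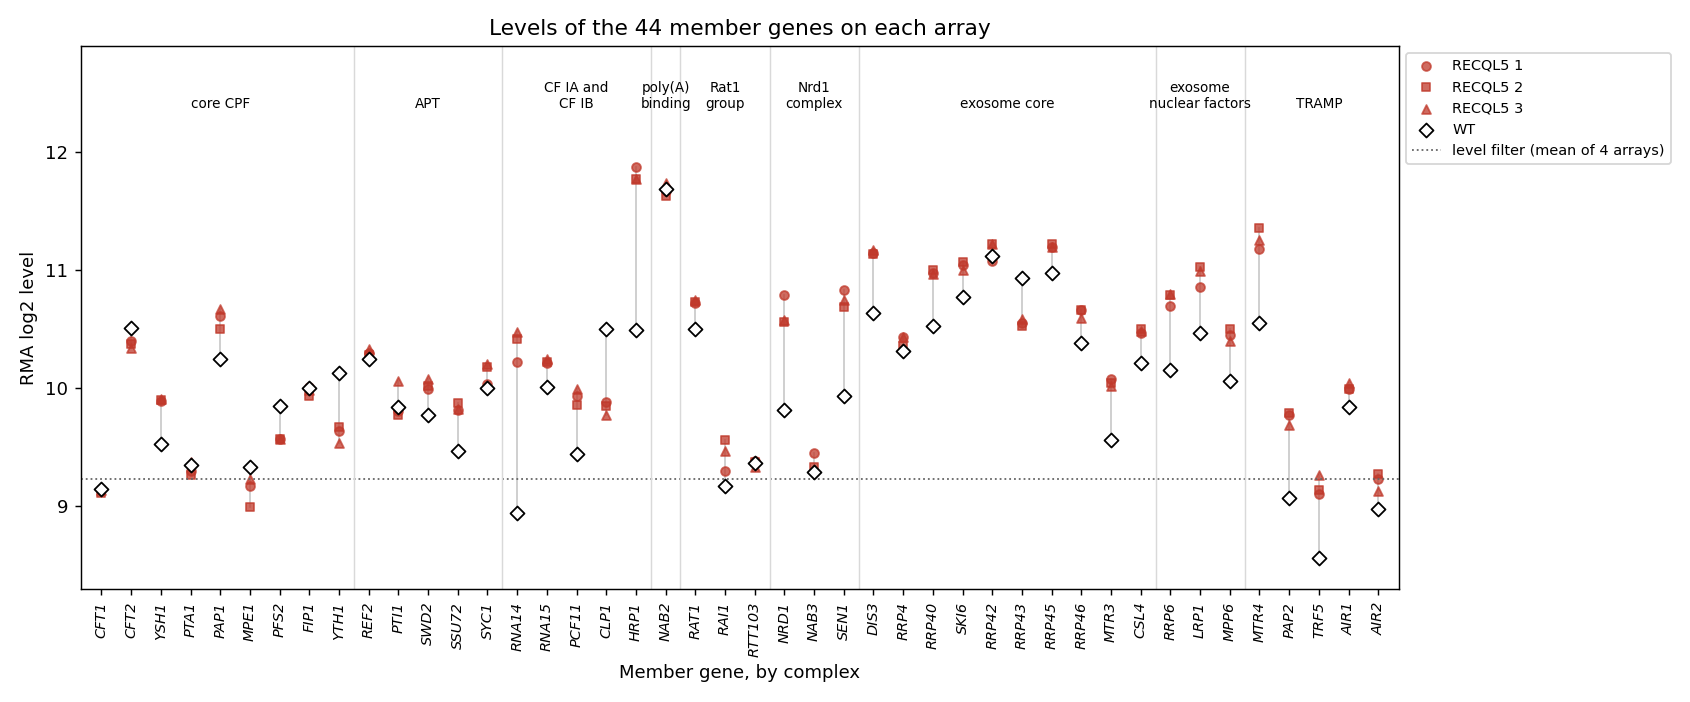
RMA log2 level (y axis) of each of the 44 genes (x axis, grouped by complex) on the WT array (open diamonds) and on the 3 RECQL5 arrays (red symbols), with the level filter of 9.23 as a dotted line. The 3 red symbols lie close together, with an SD of at most 0.16 among tested genes, and the WT diamond lies far below them for *RNA14* and *HRP1* and above them for *CLP1*.

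Over all 4128 tested genes, 9.59% were called higher and 7.80% lower. The members' shares were 17.5% and 2.5%. These members passed a filter on the mean of the arrays. *RNA14*, *RAI1* and *PAP2* read below 9.23 on the WT array and passed the filter through their RECQL5 values. The counts thus describe only the genes that passed. Without any level filter all 44 were tested, of which 8 (18.2%) were called higher and 1 (2.27%) lower, where the shares of all 5449 genes were 10.3% and 8.59%. The eighth gene was *TRF5*. The median change was 0.26 over the 40 tested members and 0.24 over all 44, beside 0.02 over all tested genes.

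A test without the fold requirement was passed by most genes of the array. At an adjusted p of at most 0.1 (limma), 29 of 40 members differed, 25 higher and 4 lower, or 72.5% where the share of all tested genes was 63.8%. The WT value lay outside the 3 RECQL5 values for 34 members (85%), near the 86.1% of all tested genes. All 3 RECQL5 arrays lay above WT for 29 members (72.5%), where the share of all tested genes was 45.5%, and below WT for 5, where it was 40.6%.

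**Figure D2:**
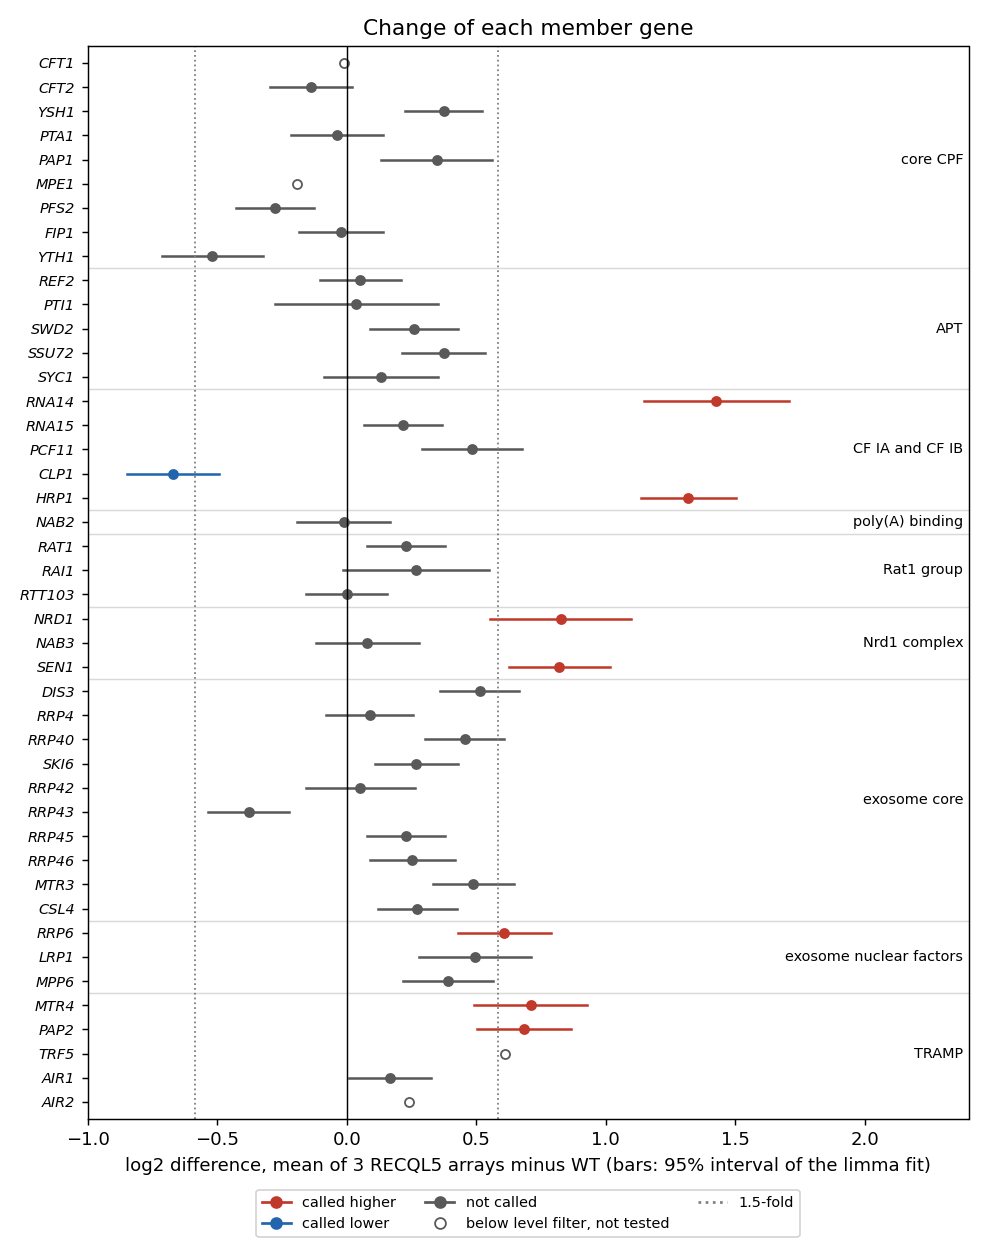
Log2 difference of each gene (x axis, mean of the 3 RECQL5 arrays minus the WT array), with genes on the y axis by complex. Bars are 95% intervals of the limma fit, dotted lines mark 1.5-fold, and open circles are the 4 genes below the level filter. *RNA14* and *HRP1* stand apart on the right at 1.43 and 1.32, and the exosome core genes lie between -0.38 and 0.51.

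The cleavage factors held both the largest rises and the only fall. Rna14 (YMR061W) is the scaffold of CF IA. Its transcript read 8.95 in WT and 10.22, 10.42 and 10.47 in RECQL5 cells. The lowest RECQL5 value was 1.28 above WT, while the RECQL5 values spanned 0.25. *RNA14* rose by 1.43 ± 0.11 (SE; 2.69-fold, adjusted p = 0.000904, limma), the 9th largest rise among tested genes. Its WT value lay below the level filter, so it dropped out of the fit when each array had to pass.

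Hrp1 (YOL123W), the single subunit of CF IB, binds the pre-mRNA beside Rna14 and Rna15 and shuttles to the cytoplasm with the message. *HRP1* read 10.49 in WT and 11.88, 11.78 and 11.77 in RECQL5. It rose by 1.32 ± 0.07 (2.49-fold, adjusted p = 0.000673, limma), the 13th largest rise. The 3 RECQL5 arrays were close to each other, spanning 0.10, and all far above WT.

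Clp1 (YOR250C) is an ATP-binding subunit that joins Pcf11 within CF IA. *CLP1* read 10.50 in WT and 9.88, 9.85 and 9.77 in RECQL5, with no overlap. The change was -0.67 ± 0.07 (adjusted p = 0.00154, limma), so that WT was 1.59-fold the RECQL5 level. The other CF IA genes lay on the side of *RNA14*, under 1.5-fold. *PCF11*, whose protein binds the polymerase's C-terminal domain, differed by 0.48 ± 0.08 (adjusted p = 0.00471) and *RNA15*, which encodes the RNA-binding partner of Rna14, by 0.22 ± 0.06 (adjusted p = 0.0286). The 5 cleavage factor genes thus spanned 2.10 on the log2 scale, from -0.67 to 1.43.

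Core CPF genes went both ways and none was called. *YSH1*, which encodes the endonuclease that cuts the pre-mRNA, read 9.53 in WT and 9.89, 9.90 and 9.91 in RECQL5 (difference 0.37, 95% interval from 0.22 to 0.52). *PAP1*, the poly(A) polymerase gene, differed by 0.35. Both missed 1.5-fold with an adjusted p of 0.00483 and 0.0192 (limma).

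On the other side was *YTH1*, which encodes a zinc finger RNA-binding subunit. It had the largest change among tested members that missed the threshold, with 10.13 in WT and 9.64, 9.67 and 9.54 in RECQL5. All 3 RECQL5 values were lower than WT, by -0.52 ± 0.08 on average (adjusted p = 0.00405, limma), which is 1.43-fold and under the required 1.5-fold. *PFS2*, a scaffold subunit gene, differed by -0.28 and *CFT2* by -0.14. *PTA1* (-0.04) and *FIP1*, which encodes the tether of Pap1 (-0.02), had WT values within the range of the RECQL5 arrays. *CFT1* (-0.01) and *MPE1* (-0.19) lay below the level filter.

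In the APT module, all 5 differences were positive and small. The largest was that of *SSU72*, which encodes a phosphatase of the polymerase's C-terminal domain, with 9.47 in WT and 9.82, 9.88 and 9.82 in RECQL5 (0.37 ± 0.06, adjusted p = 0.00602, limma). *SWD2*, whose protein also belongs to a histone methyltransferase complex, differed by 0.26 ± 0.07. *SYC1* (0.13), *REF2* (0.05) and *PTI1* (0.04) had 95% intervals that include 0, and that of *PTI1* reached from -0.28 to 0.35.

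The poly(A)-binding protein gene *NAB2* (YGL122C) overlapped between groups, with 11.69 in WT and 11.67, 11.63 and 11.74 in RECQL5. Its difference of -0.01 had a 95% interval from -0.19 to 0.17. Of the Rat1 group, *RAT1* differed by 0.23 ± 0.06 and *RAI1*, the gene of its activating partner, by 0.27 ± 0.11 (adjusted p = 0.0239 and 0.0932, limma), both under 1.5-fold. *RTT103*, whose protein bridges Rat1 to the polymerase, read 9.36 in WT and 9.38, 9.38 and 9.33 in RECQL5.

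In the Nrd1 complex, *NRD1* and *SEN1* rose while *NAB3* did not pass the test. Nrd1 (YNL251C) binds both the nascent RNA and the polymerase's C-terminal domain. *NRD1* read 9.82 in WT and 10.79, 10.56 and 10.58 in RECQL5, and rose by 0.83 ± 0.11 (1.77-fold, adjusted p = 0.00274, limma). RECQL5 replicate 1 was the highest of the 3, and all 3 were above WT by at least 0.74.

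Sen1 (YLR430W) is an RNA and DNA helicase that removes the polymerase from DNA and resolves RNA-DNA hybrids. *SEN1* read 9.93 in WT and 10.83, 10.69 and 10.74 in RECQL5, a rise of 0.82 ± 0.08 (1.77-fold, adjusted p = 0.00121, limma). *NAB3*, the gene of Nrd1's RNA-binding partner, read 9.29 in WT and 9.45, 9.33 and 9.32 in RECQL5. Its difference of 0.08 had a 95% interval from -0.12 to 0.28, which lies below the intervals of *NRD1* (from 0.55) and *SEN1* (from 0.62).

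By its median, the exosome core moved less than the cleavage factors, the Nrd1 complex, the nuclear exosome factors and TRAMP. Of the 10 core genes, 9 had a RECQL5 mean above WT, as did 51.9% of all tested genes. The core median was 0.26, the same as over all tested members. At an adjusted p of at most 0.1 (limma), 8 of the 10 differed, beside 63.8% of all tested genes. With the fold requirement 0 were called, where the share of all tested genes called in either direction was 17.4%. *DIS3*, which encodes the catalytic subunit with exonuclease and endonuclease activity, read 10.64 in WT and 11.14, 11.14 and 11.17 in RECQL5. It differed by 0.51 ± 0.06 (1.43-fold, adjusted p = 0.00203, limma), the second largest change that missed the fold threshold.

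Among the genes of the RNA-binding cap, *RRP40* differed by 0.46, *CSL4* by 0.27 and *RRP4* by 0.09. Among the ring genes, which encode inactive relatives of bacterial RNase PH, *MTR3* differed by 0.49, *SKI6* by 0.27, *RRP46* by 0.25, *RRP45* by 0.23 and *RRP42* by 0.05. *RRP43*, also of the ring, was the exception, with 10.93 in WT and 10.56, 10.53 and 10.58 in RECQL5. Its difference of -0.38 ± 0.06 (adjusted p = 0.00547, limma) was opposite in sign to those of the other 9 core genes, and it was under 1.5-fold.

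The nuclear exosome factors lay higher as a set of 3, with 1 past the threshold. Rrp6 (YOR001W) is the exonuclease that is bound to the exosome in the nucleus and not in the cytoplasm. *RRP6* read 10.15 in WT and 10.70, 10.79 and 10.80 in RECQL5 and rose by 0.61 ± 0.07 (1.52-fold, adjusted p = 0.00201, limma). This is close to 1.5-fold, and the call was lost after cyclic loess normalization (0.56).

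*LRP1*, whose protein stabilizes Rrp6, read 10.47 in WT and 10.86, 11.03 and 10.99 in RECQL5. Its difference of 0.49 ± 0.09 (adjusted p = 0.00642, limma) missed the fold threshold, as did that of *MPP6*, the gene of an RNA-binding cofactor (0.39 ± 0.07). The RECQL5 values of all 3 genes lay above WT without overlap, as did those of 45.5% of all tested genes.

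TRAMP genes rose for the helicase and for the poly(A) polymerase Pap2. Mtr4 (YJL050W) unwinds RNA ahead of the exosome. *MTR4* read 10.56 in WT and 11.18, 11.36 and 11.26 in RECQL5, a rise of 0.71 ± 0.09 (1.64-fold, adjusted p = 0.00224, limma). *PAP2* (YOL115W, also known as TRF4) read 9.07 in WT and 9.78, 9.79 and 9.69 in RECQL5, and rose by 0.68 ± 0.07 (1.61-fold, adjusted p = 0.0015). The WT value of *PAP2* was below the level filter, so like *RNA14* it was not tested where every array had to pass.

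*TRF5*, the paralogue of *PAP2*, lay lower. It read 8.56 in WT and 9.11, 9.14 and 9.27 in RECQL5, a difference of 0.61. It failed the level filter and was called only without it (adjusted p = 0.00686, limma without a level filter). The zinc knuckle subunit genes, another pair of paralogues, differed less, with 0.17 ± 0.06 for *AIR1* (adjusted p = 0.0687, limma) and 0.24 for *AIR2*, which was below the filter.

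All 7 members that rose are longer than 1245 bases, the median length of tested genes. Their lengths were 1605 (*HRP1*), 1728 (*NRD1*), 1755 (*PAP2*), 2034 (*RNA14*), 2202 (*RRP6*), 3222 (*MTR4*) and 6696 bases (*SEN1*). Of 20 tested members above that length 7 rose, and of 20 at or below it 0 rose. *CLP1* (1338 bases) is among the longer ones too. Among all tested genes, 11.0% of those above the median length and 8.18% of the others were called higher.

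Longer genes were slightly higher in RECQL5 across the array, with a median change of 0.13 in the longest of 4 equal length bins and -0.05 in the shortest. An alternative added once the data had been seen subtracted this trend. In it *RNA14* (1.33), *HRP1* (1.27), *NRD1* (0.76), *PAP2* (0.61) and *SEN1* (0.59) were still called, and *MTR4* (0.56) and *RRP6* (0.50) slipped under 1.5-fold. Control probe sets against the 3' and 5' parts of the same transcript also differed between groups. The 3' minus 5' difference was higher in the RECQL5 mean than in WT for 6 of 7 control genes (by 0.05 to 0.49). It was lower for *SRB4*, with 4.30 in WT and 3.94, 3.86 and 4.16 in RECQL5. The part of these differences in the changes of the members was not tested.

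**Figure D3:**
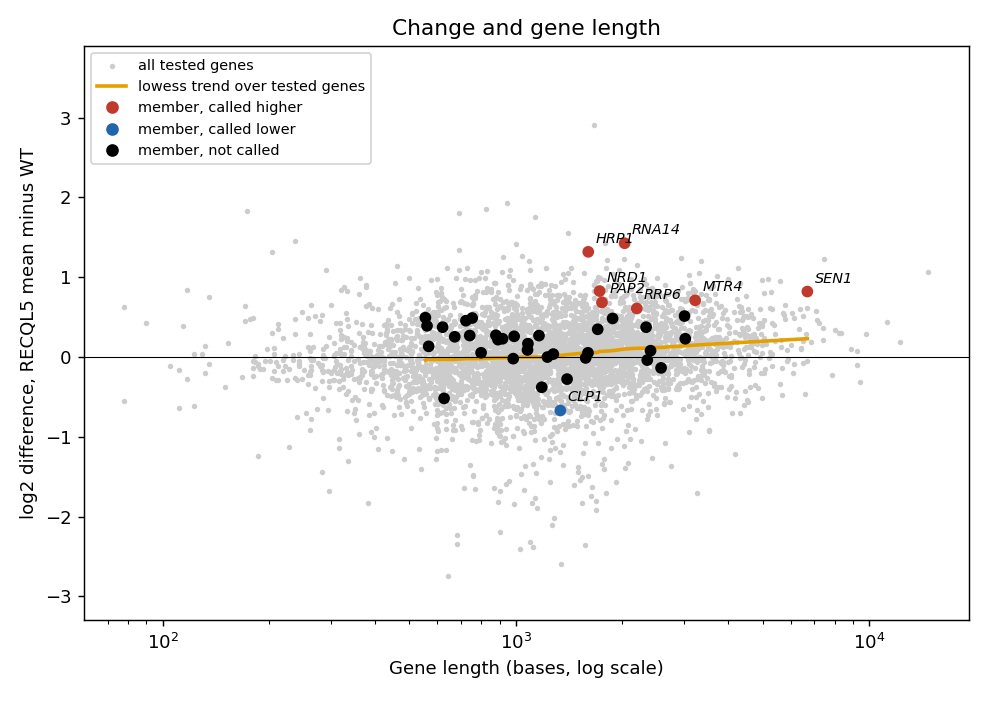
Log2 difference between RECQL5 mean and WT (y axis) against gene length in bases (x axis, log scale) for all 4128 tested genes (grey) and the 40 tested members (large points, red called higher, blue called lower, black not called). The orange line is a lowess trend over all tested genes. The 7 red points all lie to the right of 1245 bases and well above the trend, which reaches 0.23 at *SEN1*.

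Related genes were read in the same fit. The first group holds genes known to be held down by early termination through Nrd1, Nab3 and Sen1. It includes *NRD1* itself, *HRP1* and *PCF11*, so it overlaps the members. Of 8 tested genes 2 rose, *HRP1* and *NRD1*, both counted above as members, and 2 fell, with a median change of 0.32. The shares of all tested genes were 9.59% higher and 7.80% lower. *IMD2*, an IMP dehydrogenase gene whose transcript is ended early when guanine nucleotides are plentiful, read 12.27 in WT and 9.81, 9.86 and 10.07 in RECQL5. It fell by 2.36 ± 0.11 on the log2 scale (adjusted p = 0.000673, limma), on a probe set marked as shared, so close relatives of the gene may contribute to its value. *ADE12*, the adenylosuccinate synthase gene, changed by -0.90 ± 0.16 (adjusted p = 0.00669). *PCF11*, *RPB10* (0.36, adjusted p = 0.029, limma) and *URA2* (0.28, adjusted p = 0.015) were above WT and missed only the fold threshold. *URA8* (-0.17, adjusted p = 0.126) missed both. *SNG1* was below the filter, with 9.55 in WT and 9.16, 9.02 and 8.80 in RECQL5.

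The second group holds cap-binding proteins and, beside the exosome, enzymes and other factors that trim or protect structural RNAs or recruit Mtr4. Of its 10 tested genes 5 rose and 0 fell (median 0.46), where 9.59% of all tested genes rose and 7.80% fell. This list too was drawn up with earlier results known. *REX4*, a putative exonuclease gene of ribosome assembly, rose by 0.93 ± 0.08 (adjusted p = 0.00107, limma), from 9.35 in WT to 10.25, 10.37 and 10.21. *UTP18* (0.72) and *NOP53* (0.69) encode ribosome assembly factors that recruit Mtr4 to precursor rRNA. *RNT1* (0.68) encodes the RNase III that cuts precursors of rRNA and small nucleolar RNAs, and *LHP1* (0.63) a protein that shields the 3' ends of RNA polymerase III transcripts. The exonuclease genes *RNH70*, *REX2* and *REX3* did not rise, with differences of 0.00, -0.05 and -0.33, and the cap-binding genes *STO1* and *CBC2* differed by 0.30 and 0.07.

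Kinases and phosphatases of the polymerase's C-terminal domain, which set its state for termination, had 1 call among 7 tested genes and a median of -0.04. The share of all tested genes called in either direction was 17.4%. *FCP1*, a phosphatase gene, rose by 0.68 ± 0.08 (adjusted p = 0.00186, limma), from 9.52 in WT to 10.17, 10.28 and 10.15, and the call was lost with the length trend subtracted (0.57). *RTR1*, another phosphatase gene, failed the level filter with 9.23 in WT and 8.12, 8.33 and 8.12 in RECQL5. *GLC7*, the phosphatase gene of CPF, differed by -0.04.

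No gene was called in the 3 other groups, where 17.4% of all tested genes were called in either direction. Of the 5 genes of the Paf1 elongation complex, which aids 3' end formation, differences lay between -0.20 and 0.20. Of 10 genes for poly(A) tail and mRNP proteins, among them *PAB1* and *NPL3*, they lay between -0.27 and 0.32. The 4 genes for the cytoplasmic cofactors of the exosome differed by -0.06 (*SKI2*), 0.05 (*SKI3*), 0.04 (*SKI7*) and 0.37 (*SKI8*), with a median of 0.04.

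**Figure D4:**
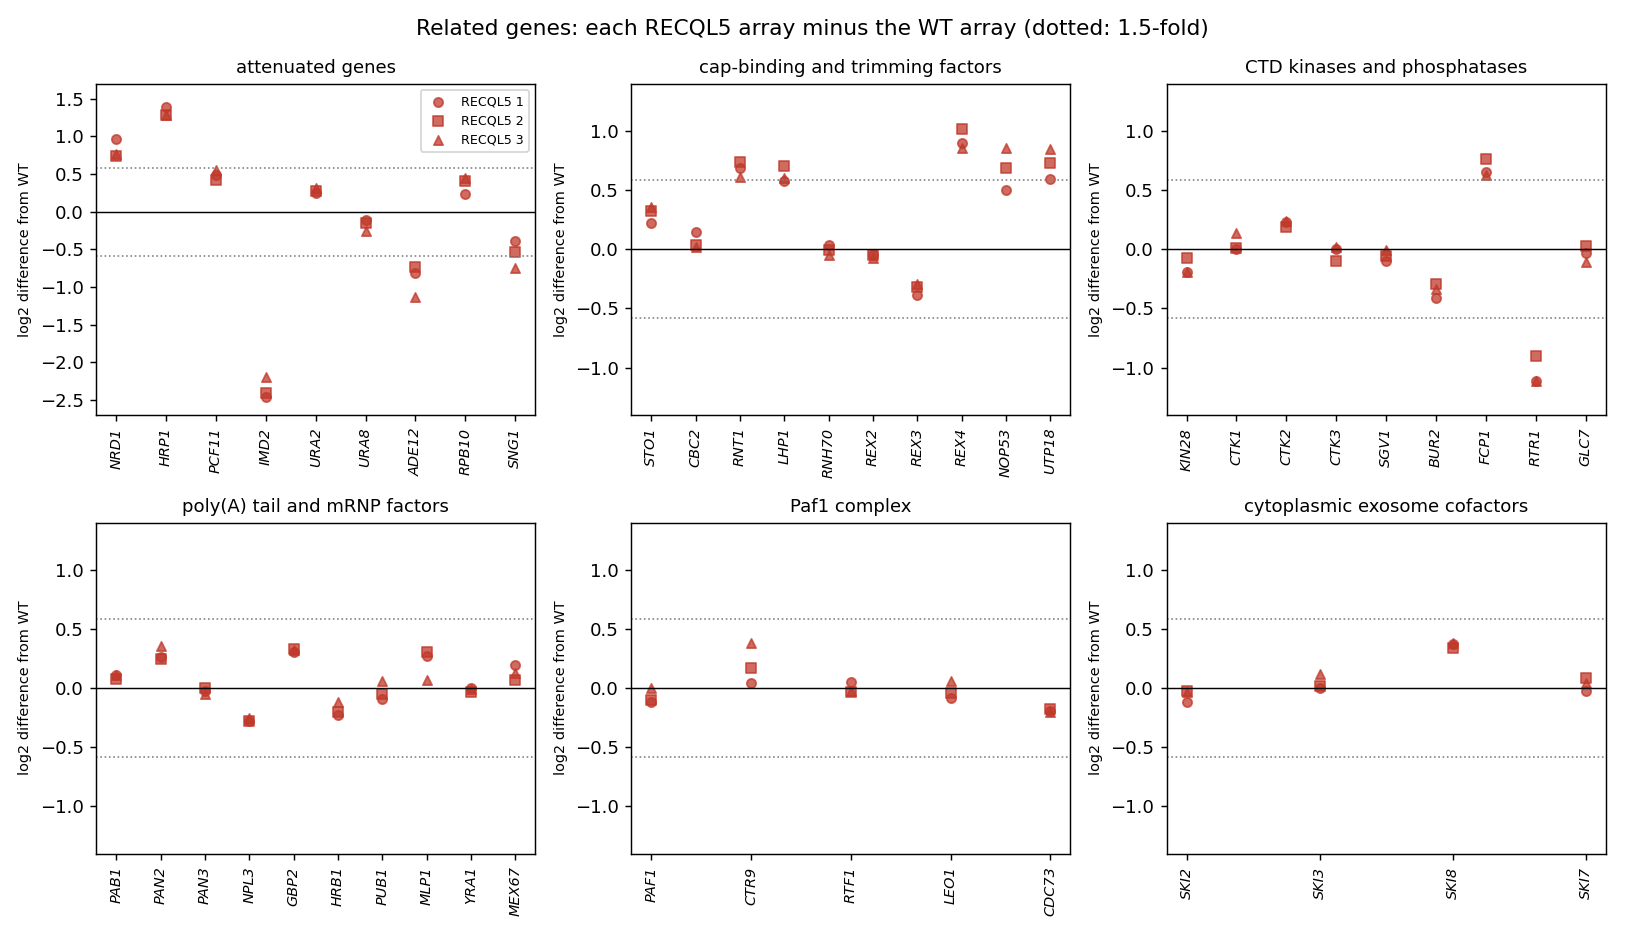
Log2 difference of each RECQL5 array from the WT array (y axis, symbols for replicates 1 to 3) for the genes of 6 related groups (x axis), with 1.5-fold as dotted lines; the y axis of the first panel has a wider range. *IMD2* lies below -2 on all 3 arrays in the panel of attenuated genes, *REX4* has the highest mean among trimming factors, and no Paf1 or cytoplasmic cofactor gene has an array past 1.5-fold.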

How the data were processed

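The deposited table gives an RMA log2 level for every probe set on each array, as the authors computed it (RMA corrects background, equalizes the arrays' distributions by quantiles and summarizes probes by median polish). RMA and limma are credited to the submitters' processing notes, and no version of either is given in the sources used here. The table holds 10928 probe sets, of which a probe table paired 5498 with 1 *S. cerevisiae* gene. Group and replicate came from the sample titles. The source names of RECQL5 replicates 2 and 3 give the construct's gene name with another final digit than all their other labels. The titles, which say RECQL5, were followed.

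Each gene was represented by its probe set with the highest mean of the 4 arrays. Genes with a mean of at least log2(600), the study's filter level, were tested in limma 3.58.1 in R 4.3.3 (lmFit and eBayes, two-sided, Benjamini-Hochberg over 4128 genes), with 2 residual degrees of freedom, all from RECQL5. The scatter of WT is thus taken to equal that of RECQL5. Moderation by eBayes added 3.4 prior degrees of freedom from a variance shared over all tested genes, for a total of 5.4. Standard errors and p-values therefore draw on that shared variance as well as on each gene's own scatter. The study's methods give 2 limits for p beside 1.5-fold, 0.1 and 0.01 after correction. The first was used and the stricter one was an alternative. The number of arrays limits the precision. The labels call the arrays of a group biological replicates and do not say whether they came from separate transformants. Values after ± are standard errors (SE). Gene names and lengths came from the R64 gene table, and no coordinates are printed because the values name no build.

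Members and related groups were chosen with earlier results of these data known, so no list was tested and lists are described by counts and medians. Every member is named. Members past the threshold, and the 3 tested members with the largest change that missed it (*YTH1*, *DIS3* and *LRP1*), have their value on each array, and related genes are named where they passed it. Other related genes, and values per array beyond this rule, were picked after their values were seen. Promoter motifs and protein identity were not analysed here. The procedure was tested on simulated data. In them WT was given the scatter of the RECQL5 arrays, so they cannot show how the calls fare if WT scatters differently. Alternatives changed the normalization, level filter, probe set rule, moderation, threshold and replicates.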

Additional observations from a re-analysis of the deposited data

Results flagged for a closer look

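Control probe sets for ribosomal RNA lie outside the gene comparison. The 8 sets for 25S rRNA read higher on all 3 RECQL5 arrays than on the WT array, with a median difference of 0.38 and a largest of 0.88 (12.13 in WT and 12.96, 12.98 and 13.08 in RECQL5). Of the 8 sets for 18S rRNA, 2 did so, with a median of -0.03, and the 1 set for 5.8S rRNA differed by 0.16. The sets for an rRNA read parts of the same molecule, and their differences were not tested.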

How the results depend on the processing

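All 8 member calls (limma) held without any 1 of the 3 RECQL5 arrays, after median centring, after quantile normalization over genes and with a trended prior. They also held with either probe set rule, which could not change member values because each member had 1 probe set not marked as shared. The limit of 0.01 for the adjusted p could not remove a call either, since the largest among them was 0.00274 (*NRD1*, limma). *RRP6* was lost after cyclic loess (0.56) and, with *MTR4*, where the length trend was subtracted, which left 5 members higher. A filter on every array left *RNA14*, *RAI1* and *PAP2* untested and 5 members higher. No call reversed. The median change of tested members (0.26) was 0.21 after cyclic loess, 0.23 after quantile normalization, 0.23 with the filter on every array and 0.23 to 0.26 without 1 RECQL5 array. Differences whose sign turned belonged to uncalled members (*PTI1*, *NAB2*, *RTT103* and *NAB3*) and were at most 0.08. Among related genes, *FCP1* lost its call with the length trend subtracted (0.57) and *NOP53* under the stricter p threshold. *MFA1* lost it under that threshold and without RECQL5 replicate 3 (-0.55). With the filter on every array, the medians of TRAMP (0.68), the cleavage factors (0.48) and the Rat1 group (0.23) were 0.44, 0.35 and 0.11. With the length trend subtracted, those of the Nrd1 complex (0.82), TRAMP, the cleavage factors and the Rat1 group were 0.59, 0.56, 0.40 and 0.09. The core CPF median (-0.04) was -0.15 with the trend subtracted and -0.08 after cyclic loess or quantile normalization. The exosome core median (0.26) was 0.22 after cyclic loess, and that of TRAMP was 0.61 without a level filter. No paired analysis was possible because WT has 1 array and shares 1 replicate number with RECQL5.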

Other observations

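The gene on either side of each of the 8 called members was read in the same fit. Of these 16 neighbours, 1 rose, 1 fell, 8 were tested and not called, and 6 were below the level filter. Among all tested genes 17.4% were called in either direction. Downstream of *RNA14* lies *ARG7* on the opposite strand, an arginine synthesis gene that differed by -0.53 ± 0.08 (adjusted p = 0.00471, limma) and missed the fold threshold. Downstream of *HRP1* lies *SMF1* on the opposite strand (0.21). *ALG6*, a glycosylation gene that follows *RRP6* on the same strand, fell by 0.80 ± 0.06 (adjusted p = 0.000904, limma; 11.63 in WT and 10.83, 10.80 and 10.84 in RECQL5). *IRC8*, upstream of *MTR4* on the same strand, rose by 0.66 ± 0.12 (adjusted p = 0.00669, limma), a call lost without RECQL5 replicate 1 (0.58) and with the length trend subtracted (0.54). *PTH4*, which lies downstream of *PAP2* on the opposite strand, was below the filter with 7.21 in WT and 8.40, 8.25 and 8.01 in RECQL5.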
